A study of Homo sapiens with 12 samples.

Results

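The 41 genes described here encode the junctions that hold epithelial cells to their neighbours, the machinery that gives these cells an apical side, and a few regulators of the epithelial state. They were matched by symbol to a list of names, with no measured value in the rule, but the list was chosen with earlier results of these data known. All 41 were found among the 28395 genes counted and among the 15853 genes that passed the filter on low counts. They comprise 3 adherens junction genes, 8 claudins, 9 other tight junction genes, 8 desmosome genes, 4 epithelial regulators, 6 polarity and apical trafficking genes, and 3 genes of a membrane protease and its inhibitors.

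Their RNA was measured by RNA-seq of polyA RNA in 4 stable lines of HCT116, a human colorectal cancer cell line, with 3 libraries per line. The study asked what re-expression of EHF, an ETS-family transcription factor, and CDX1, an intestinal homeobox transcription factor, does to such cells when given alone or together. HCT116-EV cells carried the empty pcDNA3.1 vector and HCT116-EHF cells the EHF plasmid in the same vector, and each was derived from geneticin-resistant clones. HCT116-CDX1 cells were transduced with a CDX1 retrovirus that also carries GFP, and were sorted for GFP without geneticin. HCT116-EHF+CDX1 cells were geneticin-resistant clones obtained from HCT116-CDX1 cells after transfection with the EHF plasmid. The medium (DMEM-F12 with FCS) was common to the 4 lines. The factors and the derivation of each line (clones or a sorted population, plasmid or retrovirus) cannot be told apart, and a line with an empty retrovirus is not analysed here.

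Adherens junctions are built on E-cadherin, whose cytoplasmic tail is tied to actin through catenins. Tight junctions lie above them, and there the claudins form the paracellular seal or, in some members, ion-selective pores, while scaffold proteins of the ZO family anchor them. Desmosomes couple the intermediate filaments of adjacent cells through desmosomal cadherins, plakins and armadillo-repeat proteins. Polarity complexes such as Par, Crumbs and Scribble keep the apical and basolateral membranes distinct, and in the colon this arrangement underlies the barrier.

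Levels are given as TMM-normalized CPM (read counts scaled to library size), each as the mean ± SD of 3 libraries or library by library in the order of replicates 1, 2 and 3. Fold changes are on the log2 scale ± SE from an edgeR quasi-likelihood fit to all 12 libraries. A gene is said to have risen or fallen where it passed an edgeR test for a change beyond 1.5-fold, with p-values adjusted by Benjamini-Hochberg over the 15853 genes and a threshold of 0.05, here called the 1.5-fold test, and adjusted p-values are from that test unless stated. Levels of EHF itself were 19312 ± 305 CPM for HCT116-EHF and 18708 ± 1433 for HCT116-EHF+CDX1 cells, compared with 299 ± 54.4 for the HCT116-EV line and 12.3 ± 0.603 for the HCT116-CDX1 line. CDX1 had at most 1 read per library in HCT116-EV and at most 4 in HCT116-EHF cells. It reached 5419 ± 277 CPM with both factors and 525 ± 35.8 CPM with CDX1 alone. The lines with both factors and with CDX1 alone thus carried unequal CDX1 mRNA levels, and EHF was lower in HCT116-CDX1 than in HCT116-EV cells.

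The libraries held 13523007 to 74186741 counts each. The 4 epithelial markers EPCAM, KRT8, KRT18 and KRT19 were counted in every line, with summed levels of 3940 to 5311 CPM in HCT116-EV, 4077 to 4219 in HCT116-EHF, 2236 to 2749 in HCT116-CDX1 and 4382 to 4636 in HCT116-EHF+CDX1 cells. Of 5 intestinal markers, VIL1, CDH17 and LGALS4 had mean levels under 1 CPM in each line except HCT116-EHF+CDX1, where they reached 50.5 ± 2.73, 31.8 ± 1.53 and 35.5 ± 0.885 CPM, and the summed list ranged from 25.4 to 44.8 CPM in the other lines and from 180 to 191 in HCT116-EHF+CDX1 cells. Some markers of other cell types had at most 7 reads in any library. They were COL1A2, DCN and LUM of 6 fibroblast markers, CDH5 of 3 endothelial and PTPRC and CD3E of 4 leukocyte markers. The summed endothelial list was 0.258 to 1.87 CPM over all libraries. The summed fibroblast and leukocyte lists were highest in HCT116-CDX1 cells, at 167 to 219 and 79.8 to 91.3 CPM, mainly through COL1A1 and CD68. Elsewhere they were at most 75.3 and 27.4 CPM. The 2 leukocyte markers past the filter rose in HCT116-CDX1 cells, by 3.86 and 4.88 on the log2 scale, and in HCT116-EHF+CDX1 cells, by 2.05 and 2.72. Of all genes, 44.6% and 10.4% were called there. RNA of a line is measured in bulk, so fewer cells that express a gene and less RNA per cell cannot be told apart.

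HCT116-EV replicate 3 stood apart from the other two HCT116-EV libraries before any comparison was made. Its level was above their mean in all but 4 of the 41 genes, by a median of 0.61 on the log2 scale against 0.077 over all genes tested, and it differed from them by more than 1.5-fold in 22 of the 41 genes against 46% of all genes. The same measure gave -0.33 for replicate 1 and -0.29 for replicate 2. Counts of replicates 1 and 2 differed by a chi-square of 4.18 per degree of freedom, and those of replicate 3 from theirs by 323 and 294. Pairs of HCT116-CDX1 libraries differed by 19.6 to 47.2, and pairs within each line with the EHF plasmid by 3.21 to 7.68. The largest deviations of HCT116-EV replicate 3 were CGN (cingulin, a tight junction scaffold) at 29.8, 28.9 and 111 CPM, CLDN4 at 156, 157 and 513, PPL at 132, 127 and 421, and CLDN15 at 12.7, 15.0 and 42.9. The calls against HCT116-EV cells are therefore also given without that library.

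**Figure D1:**
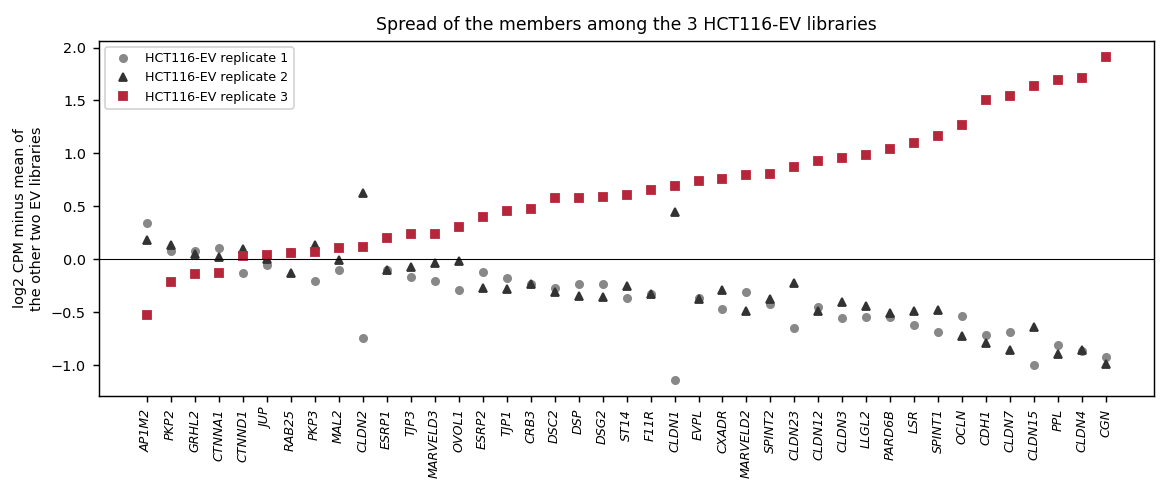
Log2 CPM of each of the 41 genes in each HCT116-EV library minus the mean of the other two HCT116-EV libraries, with the genes ordered along the x axis by replicate 3 (squares). Replicate 3 is below 0 in 4 genes and lies up to 1.91 above the other two libraries, at CGN, while replicates 1 and 2 (circles and triangles) have medians of -0.33 and -0.29.

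The claudins CLDN1, CLDN2 and CLDN3 rose in HCT116-EHF+CDX1 cells, so their RefSeq promoter sequences (GRCh38.p14) are shown as context, each as the 250 bases upstream of a transcription start, 5′ to 3′ on the gene's strand. RefSeq windows were used for 22 of the 41 genes, 35 windows in all. Of the 19 genes without a window used, some were left out by a filter, as described with the processing. Capitals mark the ETS-type core GGAAG or its reverse complement CTTCC. The windows are chr3:190322447-190322696 on the minus strand for CLDN1, chrX:106899914-106900163 and chrX:106918110-106918359 on the plus strand for 2 starts of CLDN2, and chr7:73770271-73770520 on the minus strand for CLDN3.
CLDN1: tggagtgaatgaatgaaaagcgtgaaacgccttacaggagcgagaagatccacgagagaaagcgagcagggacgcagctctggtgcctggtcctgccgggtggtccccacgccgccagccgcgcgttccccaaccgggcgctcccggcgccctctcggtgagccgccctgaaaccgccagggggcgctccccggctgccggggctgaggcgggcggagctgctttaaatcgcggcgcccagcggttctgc
CLDN2, upstream start: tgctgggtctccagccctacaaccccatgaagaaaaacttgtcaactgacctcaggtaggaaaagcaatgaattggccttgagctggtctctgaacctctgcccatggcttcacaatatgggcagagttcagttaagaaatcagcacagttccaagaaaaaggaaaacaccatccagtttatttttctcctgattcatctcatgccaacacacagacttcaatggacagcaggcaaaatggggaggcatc
CLDN2, downstream start: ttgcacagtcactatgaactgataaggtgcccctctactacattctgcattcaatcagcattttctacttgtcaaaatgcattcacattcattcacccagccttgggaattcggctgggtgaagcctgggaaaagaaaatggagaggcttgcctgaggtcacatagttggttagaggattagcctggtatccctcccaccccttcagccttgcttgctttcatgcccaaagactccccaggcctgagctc
CLDN3: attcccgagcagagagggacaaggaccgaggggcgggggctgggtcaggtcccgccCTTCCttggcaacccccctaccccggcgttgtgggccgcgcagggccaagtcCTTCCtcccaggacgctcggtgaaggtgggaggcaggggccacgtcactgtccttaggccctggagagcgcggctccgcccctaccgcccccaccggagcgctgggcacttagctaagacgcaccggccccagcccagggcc
On both strands, the ETS-type core was in 65.1% of 35116 RefSeq windows of the same length and in 25 of the 35 windows of these genes, and among those printed it was found in CLDN3 alone, with 2 matches. The CDX-type letters CATAAA (or TTTATG) were in 9.64% of all windows and in 0 of the 35. The median GC content was 66% in the 35 windows and 58% in all windows. These are matches of letters and not binding data, and the letters searched do not overlap each other.

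The genes changed in both directions in each line relative to HCT116-EV cells. In HCT116-EHF+CDX1 cells 5 of the 41 genes rose (CLDN1, CLDN2, CLDN3, DSC2 and PKP2) and 3 fell (JUP, PPL and LLGL2), which is 19.5% of the 41 against 10.4% of all genes called (7.3% higher and 3.13% lower). In HCT116-EHF cells DSC2 and PKP2 rose while JUP, LLGL2 and MAL2 fell, 12.2% of the 41 against 8.33% of all genes (5.68% higher and 2.65% lower). In HCT116-CDX1 cells 7 rose (CTNNA1, CLDN12, CLDN15, TJP1, DSC2, DSP and PARD6B) and 6 fell (CLDN3, CLDN23, JUP, PKP3, ESRP2 and MAL2), 31.7% of the 41 against 44.6% of all genes. The median log2 fold change of the 41 genes was -0.25, -0.21 and 0.12 in HCT116-EHF+CDX1, HCT116-EHF and HCT116-CDX1 cells, beside -0.027, -0.040 and -0.028 over all genes. The 3 comparisons share their HCT116-EV libraries.

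Smaller differences were counted with the edgeR test against no change. With both factors 18 of the 41 genes passed it, 5 higher and 13 lower, against 33.6% of all genes (16.9% higher and 16.7% lower). With EHF 17 passed, 3 higher and 14 lower, against 30.1% of all genes (14.9% and 15.1%). With CDX1 27 passed against 68.9% of all genes. Between HCT116-EHF+CDX1 and HCT116-EHF cells 4 passed against 9.78%, between HCT116-EHF+CDX1 and HCT116-CDX1 cells 25 against 67.2%, and 23 passed for the interaction of both factors against 58.5%.

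Without HCT116-EV replicate 3, the 8 calls in HCT116-EHF+CDX1 cells were kept and CGN (higher) and AP1M2 (lower) joined them, with 15.5% of all genes called. The median of the 41 genes moved to 0.00085, and 11 genes changed sign, each towards a higher level. In HCT116-EHF cells the 5 calls were kept, CLDN2, CLDN3 and CLDN4 joined as higher, and 13% of all genes were called. In HCT116-CDX1 cells 12 of the 13 calls were kept, CLDN3 was lost, CLDN4, OCLN, F11R, CGN, DSG2, OVOL1 and SPINT1 joined as higher and AP1M2 as lower, and 14 genes were higher and 6 lower against 51.1% of all genes. The balance of directions also differed under limma voom, which changes both the normalization (quantile in place of TMM) and the fit. It called 4 higher and 1 lower gene in HCT116-EHF+CDX1 cells (80% higher in place of 62.5%), 2 higher and 1 lower in HCT116-EHF cells, where 2 lower calls were no longer made, and 3 higher and 6 lower in HCT116-CDX1 cells (33.3% in place of 53.8%), where the median of the 41 genes turned from 0.12 to -0.082. RLE factors in the edgeR fit gave the same numbers higher and lower as TMM factors in each line. No share of all genes is set beside the limma voom counts here or below. Those counts describe the setting and are not read as a result about these genes.

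**Figure D2:**
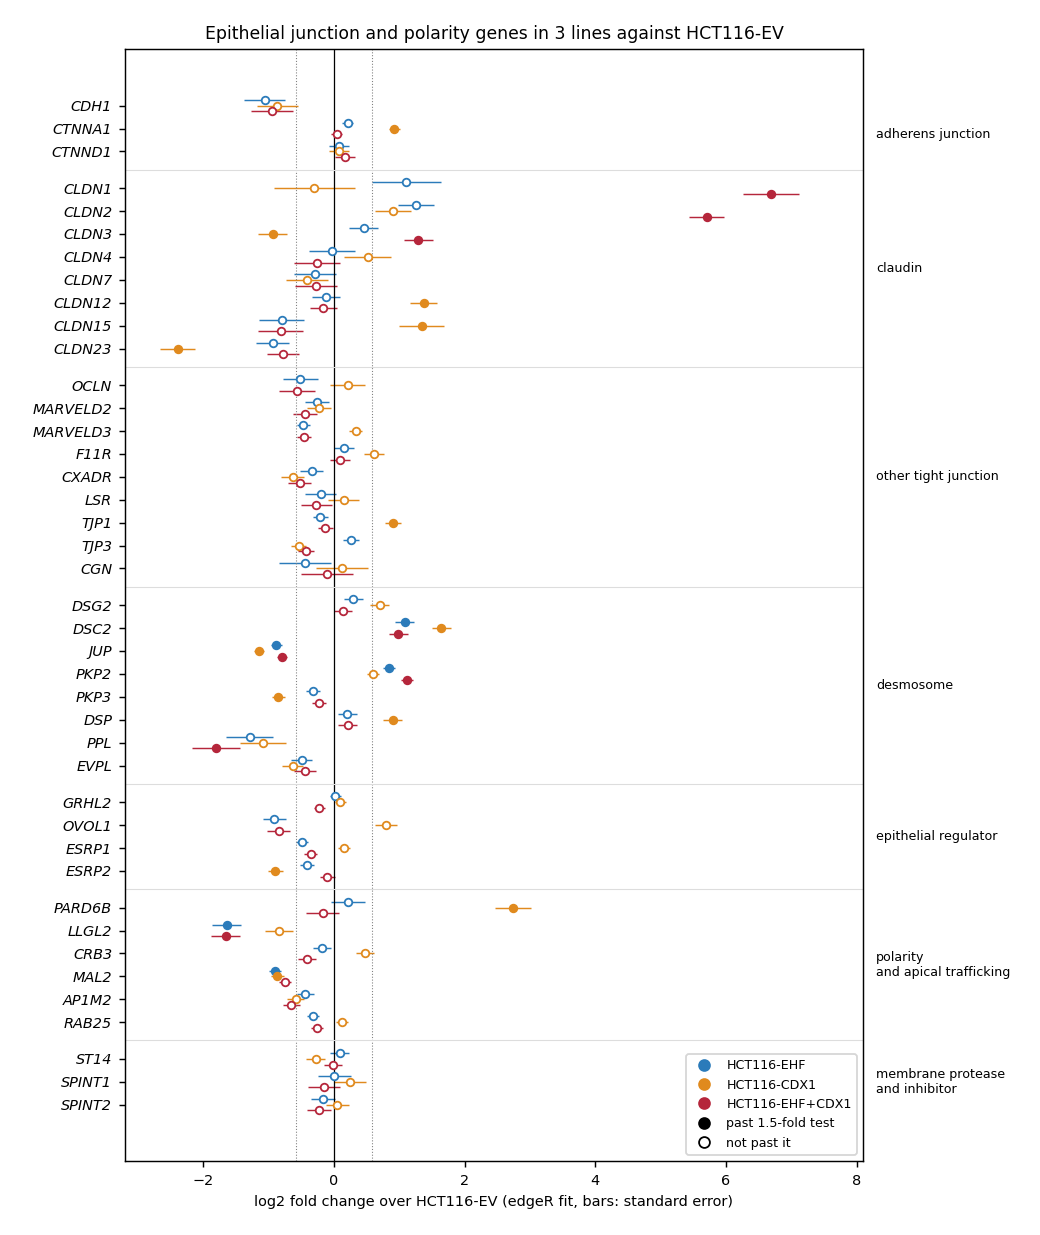
Log2 fold change over HCT116-EV cells (x axis, edgeR fit on 12 libraries, bars SE) of the 41 genes grouped by role, for HCT116-EHF (blue), HCT116-CDX1 (orange) and HCT116-EHF+CDX1 cells (red). Filled points passed the 1.5-fold test and dotted lines mark 1.5-fold. CLDN1 and CLDN2 in HCT116-EHF+CDX1 cells, at 6.69 and 5.70, lie farthest from 0.

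HCT116-EHF+CDX1 cells differed from HCT116-EHF cells in few of the genes. Only CLDN1 and CLDN2 passed the 1.5-fold test, both higher, against 2.68% of all genes (2.49% higher and 0.189% lower). Against HCT116-CDX1 cells, HCT116-EHF+CDX1 cells had 5 genes higher (CLDN1, CLDN2, CLDN3, CLDN23 and ESRP2) and 8 lower (CTNNA1, CLDN12, CLDN15, MARVELD3, TJP1, OVOL1, PARD6B and CRB3), while 41% of all genes were called. The median log2 fold change of the 41 genes was -0.014 in the first of these comparisons and -0.32 in the second, beside 0.0011 and 0.039 over all genes. Under limma voom the higher genes were 54.5% of the calls in the second comparison in place of 38.5%, and 63.6% with the deposited log2 RPKM values. HCT116-CDX1 cells had the highest mean level of the 4 lines in 21 of the 41 genes and the lowest in 11, ranks not counted over all genes. All 3 of their libraries lay above the other 9 libraries in 12 genes and below them in 6, against 27.6% and 25.8% of all genes. These levels include TMM factors of 0.799 to 0.845 in HCT116-CDX1 and 0.973 to 1.09 in other libraries. The 41 genes held 0.555% to 0.573% of the counts in HCT116-CDX1 libraries, or 6702 to 6949 CPM. In the lines with the EHF plasmid they held 0.551% to 0.578%, or 5214 to 5352 CPM. The HCT116-EV libraries had the highest shares, at 0.599%, 0.607% and 0.868%, or 5482, 5546 and 8924 CPM.

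The claudins held the largest changes of the 41 genes. CLDN1, a sealing claudin, had 1, 3 and 9 reads in the HCT116-EV libraries, 9, 8 and 23 in HCT116-EHF, and 8, 4 and 1 in HCT116-CDX1 libraries. In HCT116-EHF+CDX1 cells it had 729, 722 and 206 reads, or 12.7, 13.7 and 14.2 CPM, against 0.117 ± 0.0649 CPM in HCT116-EV cells. It was thus close to the limit of counting in 3 lines and clearly counted in the line with both factors. CLDN1 passed the filter of 0.5 CPM in at least 3 libraries only through that line. Its p-values thus draw on the same high values that admitted the gene, and are no separate support. The log2 fold change over HCT116-EV cells was 6.69 ± 0.42 (103-fold, edgeR adjusted p = 6.62e-07), that over HCT116-EHF cells 5.58 ± 0.38 (adjusted p = 3.02e-06), and that over HCT116-CDX1 cells 6.98 ± 0.42 (adjusted p = 1.47e-07). CLDN1 lies at chr3:190305707-190322446 (GRCh38) and overlaps CLDN16, so its counts are uncertain to the extent that the genes share reads.

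CLDN2, which forms a cation and water pore in leaky epithelia, was also highest in HCT116-EHF+CDX1 cells. Its levels were 0.431, 0.852 and 0.662 CPM in HCT116-EV, 0.958, 1.55 and 1.9 in HCT116-EHF, 1.34, 1.36 and 0.926 in HCT116-CDX1 and 34.1, 31.9 and 35.7 in HCT116-EHF+CDX1 libraries. The 3 HCT116-EHF+CDX1 libraries lay far above the other 9, and the HCT116-EHF and HCT116-CDX1 libraries overlapped each other while lying above the HCT116-EV libraries. The log2 fold change over HCT116-EV cells was 5.70 ± 0.27 (52.1-fold, adjusted p = 5.87e-08) with both factors, 1.25 ± 0.27 with EHF alone (adjusted p = 0.052) and 0.90 ± 0.28 with CDX1 alone (adjusted p = 0.102). The value with EHF alone passed the 1.5-fold test without HCT116-EV replicate 3, at an adjusted p of 0.0395. CLDN2 lies at chrX:106900164-106930861 and overlaps RIPPLY1.

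CLDN3, a sealing claudin of many epithelia, stood at 15.6, 16.7 and 31.4 CPM in HCT116-EV, 28.9, 29.6 and 29.6 in HCT116-EHF, 9.46, 12.7 and 11.4 in HCT116-CDX1 and 50.7, 52.6 and 54.1 in HCT116-EHF+CDX1 libraries. The line with both factors was above all others, the line with CDX1 alone below all others, and the HCT116-EHF libraries lay within the range of HCT116-EV. The rise with both factors was 1.29 ± 0.22 (adjusted p = 0.0112) and the fall with CDX1 alone -0.94 ± 0.22 (adjusted p = 0.0466). Without HCT116-EV replicate 3 these values were 1.70 ± 0.10 and -0.53 ± 0.11, and the fall no longer passed (adjusted p = 0.609). It was also lost without HCT116-CDX1 replicate 1 or 3 (-0.82 and -0.94, adjusted p = 0.150 and 0.0792). CLDN3 lies at chr7:73768997-73770270.

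CLDN12, CLDN15 and CLDN23 were set apart by HCT116-CDX1 cells. CLDN12 stood at 92.4, 75.9 and 84.8 CPM in HCT116-CDX1 libraries, 25.1, 24.6 and 47.4 in HCT116-EV, 27.4, 31.0 and 31.2 in HCT116-EHF and 30.1, 28.7 and 28.3 in HCT116-EHF+CDX1 libraries. Its rise over HCT116-EV cells was 1.37 ± 0.21 (adjusted p = 0.00114). CLDN15, a pore-forming claudin of the intestine, was at 61.4, 58.3 and 62.1 CPM in HCT116-CDX1 libraries and at 12.1 to 14.7 CPM in the 6 libraries with EHF, beside 12.7 to 42.9 in HCT116-EV libraries. The rise of CLDN15 over HCT116-EV cells was 1.35 ± 0.34 (adjusted p = 0.0202), and without HCT116-EV replicate 3 it was 2.13. It was lost without HCT116-EV replicate 1 or 2, at 1.04 and 1.10 (adjusted p = 0.0606 and 0.0680). For both genes the HCT116-CDX1 libraries lay above the other 9, and the remaining lines overlapped.

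CLDN23 moved the other way. It stood at 7.71, 9.37 and 15.6 CPM in HCT116-EV, 5.53, 5.84 and 5.81 in HCT116-EHF, 2.21, 1.62 and 2.44 in HCT116-CDX1 and 5.22, 6.74 and 7.46 in HCT116-EHF+CDX1 libraries, and its log2 fold change in HCT116-CDX1 cells was -2.39 ± 0.26 (adjusted p = 2.92e-05). CLDN4, a sealing claudin, had the highest length-normalized level of the claudins, at 7.02 ± 0.98 log2 RPKM (the authors' values) in HCT116-EV and 7.10 ± 0.09 in HCT116-EHF+CDX1 cells. It stood at 156, 157 and 513 CPM in HCT116-EV, 272, 263 and 273 in HCT116-EHF, 377, 421 and 386 in HCT116-CDX1 and 215, 236 and 239.7 in HCT116-EHF+CDX1 libraries. The HCT116-EV range spanned that of every other line, and the log2 fold changes over HCT116-EV cells were -0.26 ± 0.36, -0.03 ± 0.36 and 0.52 ± 0.36 with both factors, EHF and CDX1. Without HCT116-EV replicate 3, CLDN4 was higher in HCT116-EHF cells by 0.78 ± 0.06 (adjusted p = 0.0051) and in HCT116-CDX1 cells by 1.33 ± 0.06 (adjusted p = 3.56e-10). CLDN7 did not pass in any comparison and overlaps ELP5. On the per-length scale CLDN1 and CLDN2, even at their highest, stayed below CLDN4, at 1.89 ± 0.08 and 3.30 ± 0.09 log2 RPKM in HCT116-EHF+CDX1 cells.

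**Figure D3:**
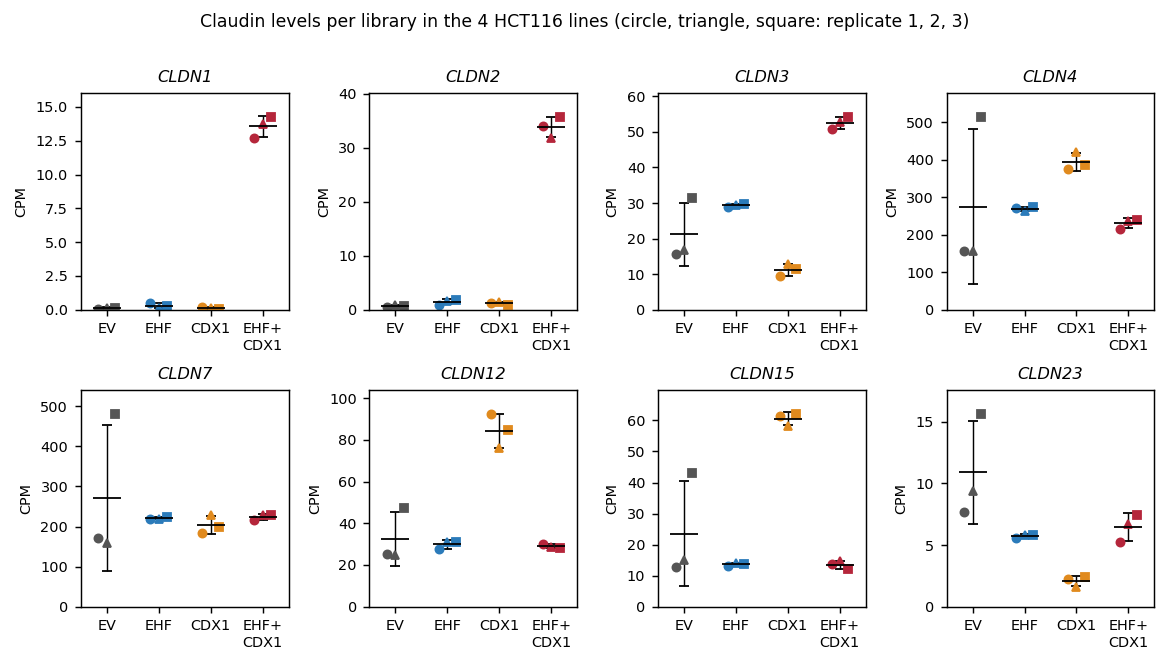
CPM of the 8 claudins in each library of the 4 lines (circle, triangle and square for replicates 1, 2 and 3; the horizontal line is the mean and the bar the SD, n = 3; each y axis starts at 0). CLDN1 and CLDN2 are near 0 outside HCT116-EHF+CDX1 cells, CLDN12 and CLDN15 are highest in HCT116-CDX1 cells, and HCT116-EV replicate 3 lies above replicates 1 and 2 for CLDN3, CLDN4, CLDN7, CLDN12, CLDN15 and CLDN23.

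Among the 9 other tight junction genes, the call against HCT116-EV cells over all 12 libraries was TJP1 (ZO-1, the scaffold that ties claudins to actin), which rose in HCT116-CDX1 cells by 0.91 ± 0.12 (adjusted p = 0.00627). The log2 fold changes of the 9 genes over HCT116-EV cells ranged from -0.57 to 0.09 with both factors, from -0.51 to 0.26 with EHF and from -0.63 to 0.91 with CDX1. LSR (angulin-1, which seals contacts where 3 cells meet) had the highest length-normalized level of this group. It was at 360.0, 382 and 797 CPM in HCT116-EV, 443, 447 and 452 in HCT116-EHF, 568, 613 and 524 in HCT116-CDX1 and 415, 439 and 422 in HCT116-EHF+CDX1 libraries. Its HCT116-EV range spanned that of each other line, and it passed in no comparison. TJP1 and MARVELD3, a tetraspanning protein of the occludin family, were lower in HCT116-EHF+CDX1 than in HCT116-CDX1 cells, by -1.04 ± 0.12 and -0.79 ± 0.10 (adjusted p = 0.00109 and 0.0253). MARVELD3 was lost without HCT116-CDX1 replicate 1 or HCT116-EHF+CDX1 replicate 3 (adjusted p = 0.0748 and 0.0839), and under limma voom with quantile normalization both TJP1 values, 0.56 and -0.57, did not pass. CGN, at 0.85 ± 0.10 with both factors without HCT116-EV replicate 3 (adjusted p = 0.0165), was -0.11 ± 0.40 with it. Without that library OCLN (occludin), F11R (the adhesion molecule JAM-A) and CGN also passed in HCT116-CDX1 cells, at 0.77 ± 0.09, 0.86 ± 0.06 and 1.07 ± 0.10 (adjusted p = 0.0140, 5.29e-05 and 3.57e-05).

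The desmosome genes moved in both directions. The cadherin DSC2 (desmocollin-2) and the plakophilin PKP2 were higher in each line than in HCT116-EV, whereas JUP (plakoglobin, the armadillo protein shared with adherens junctions) was lower in each. DSC2 stood at 27.3, 26.7 and 40.3 CPM in HCT116-EV, 69.4, 65.2 and 66.3 in HCT116-EHF, 108, 87.0 and 100.2 in HCT116-CDX1 and 63.2, 61.4 and 62.5 in HCT116-EHF+CDX1 libraries. No 2 lines overlapped, and the order from low to high was HCT116-EV, HCT116-EHF+CDX1, HCT116-EHF and HCT116-CDX1. The rises were 0.98 ± 0.15 with both factors, 1.09 ± 0.15 with EHF and 1.64 ± 0.15 with CDX1 (adjusted p = 0.0226, 0.00884 and 1.37e-05). DSC2 overlaps the antisense gene DSCAS.

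PKP2 stood at 26.2, 26.9 and 22.9 CPM in HCT116-EV, 44.5, 46.0 and 46.2 in HCT116-EHF, 36.7, 41.6 and 36.9 in HCT116-CDX1 and 56.9, 51.4 and 56.8 in HCT116-EHF+CDX1 libraries. Here too the lines did not overlap, with HCT116-EHF+CDX1 highest. The rise was 1.12 ± 0.09 with both factors (adjusted p = 0.000246) and 0.85 ± 0.09 with EHF (adjusted p = 0.0244; 0.0734 and 0.0772 without HCT116-EHF replicate 2 or 3), and the value with CDX1, 0.60 ± 0.09, did not pass (adjusted p = 0.343). JUP, with the highest length-normalized level of the desmosome genes, stood at 711, 730.1 and 743 CPM in HCT116-EV, 397, 397 and 392 in HCT116-EHF, 305, 338 and 342 in HCT116-CDX1 and 422, 414 and 422 in HCT116-EHF+CDX1 libraries. The 3 HCT116-EV libraries were close to each other and far above the rest. JUP fell by 0.80 ± 0.08 with both factors, by 0.88 ± 0.08 with EHF and by 1.15 ± 0.08 with CDX1 on the log2 scale (adjusted p = 0.0259, 0.00544 and 8.90e-06).

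The plakin PPL (periplakin) stood at 132, 127 and 421 CPM in HCT116-EV, 98.9, 89.1 and 90.8 in HCT116-EHF, 111, 111 and 99.4 in HCT116-CDX1 and 64.3, 63.4 and 67.9 in HCT116-EHF+CDX1 libraries. The HCT116-EHF+CDX1 libraries were the lowest and did not overlap the others. The log2 fold change with both factors was -1.80 ± 0.36 (adjusted p = 0.0149), and without HCT116-EV replicate 3 it was -0.999 ± 0.066 (adjusted p = 1.11e-05). The plakophilin PKP3 stood at 163, 191 and 185 CPM in HCT116-EV, 137, 154 and 142 in HCT116-EHF, 87.3, 114 and 98.7 in HCT116-CDX1 and 151, 156 and 153 in HCT116-EHF+CDX1 libraries, and it fell in HCT116-CDX1 cells alone among the 3 lines, by 0.85 ± 0.11 (adjusted p = 0.00949). PKP3 was lost without HCT116-CDX1 replicate 1 (-0.75, adjusted p = 0.0532). DSP (desmoplakin, which binds keratin filaments) rose in HCT116-CDX1 cells by 0.90 ± 0.15 (adjusted p = 0.0168), a call lost without HCT116-EV replicate 1 or 2 or HCT116-CDX1 replicate 1 (0.78 to 0.84, adjusted p = 0.0561 to 0.0710). DSG2 and EVPL did not pass against HCT116-EV cells over all 12 libraries, with log2 fold changes between -0.63 and 0.70. DSG2 (desmoglein-2) passed in HCT116-CDX1 cells without HCT116-EV replicate 3, at 0.92 ± 0.06 (adjusted p = 1.30e-05), and overlaps DSG2-AS1.

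The calls of DSC2, JUP and PPL with both factors lay close to the threshold, since they were lost in 8, 7 and 6 of 14 alternative settings, whereas those of CLDN1, CLDN2, PKP2 and LLGL2 were lost in none of the 14. The CLDN3 call was lost in 1, the edgeR fit of only the groups compared (adjusted p = 0.0971). The 14 settings include the edgeR test against no change, which uses the same fold changes and is less strict, so it could not lose a call. With EHF alone all 5 calls were lost when only the HCT116-EHF and HCT116-EV libraries were fitted (adjusted p = 0.0513 to 0.0636), and JUP and MAL2 also with limma voom (adjusted p = 0.132 and 0.136). With both factors DSC2 was lost without HCT116-EV replicate 1 or 2 or HCT116-EHF+CDX1 replicate 1 or 3 (0.88 to 0.99, adjusted p = 0.0576 to 0.0846). JUP and PPL were lost when any one of the HCT116-EHF+CDX1 libraries was left out, at -0.80 to -0.76 (adjusted p = 0.0770 to 0.127) and -1.82 to -1.76 (adjusted p = 0.0554 to 0.0702).

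**Figure D4:**
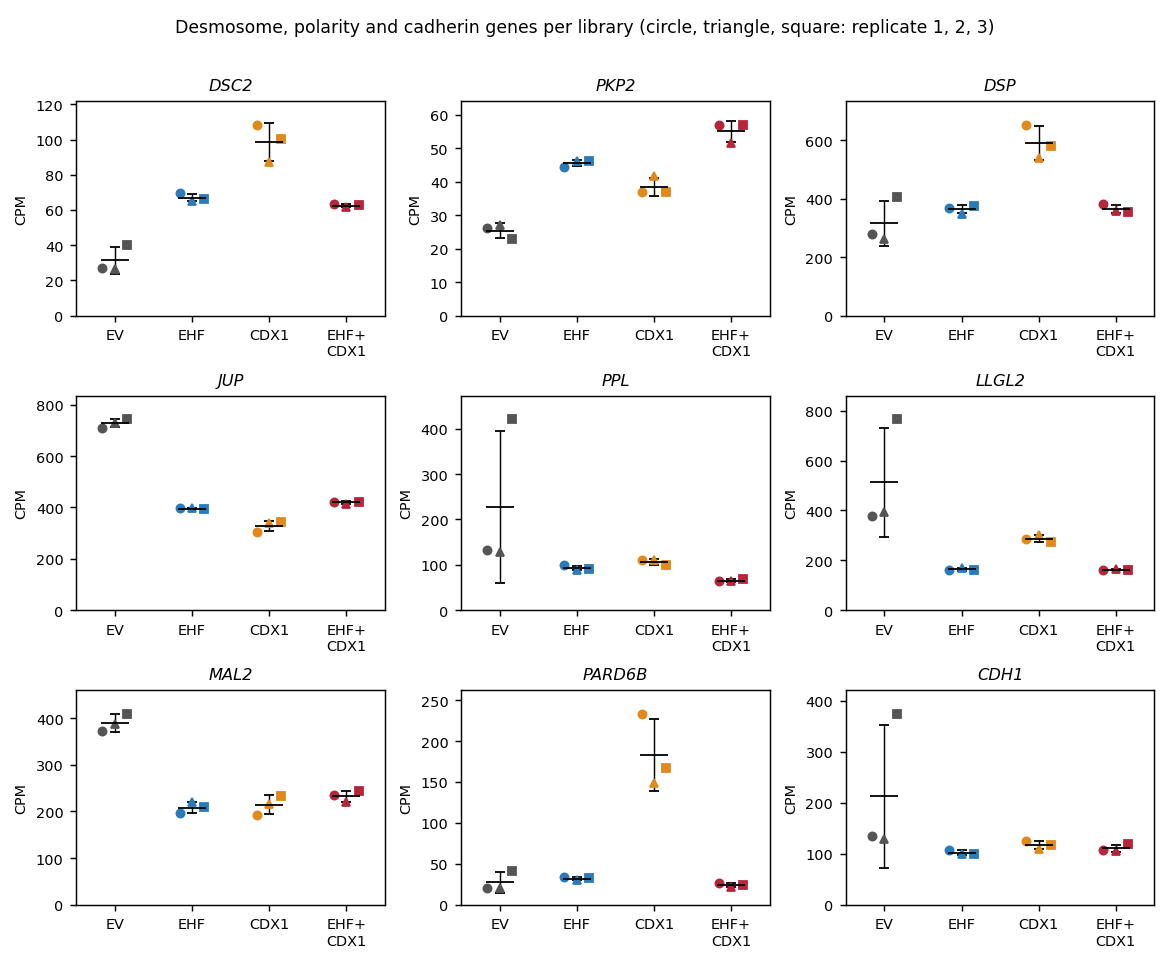
CPM of 9 desmosome, polarity and cadherin genes in each library of the 4 lines (circle, triangle and square for replicates 1, 2 and 3; horizontal line mean, bar SD, n = 3; each y axis starts at 0). JUP, LLGL2 and MAL2 are lower in the 3 other lines than in HCT116-EV, DSC2 and PKP2 are higher, PARD6B stands out in HCT116-CDX1 cells, and the HCT116-EV means of CDH1, PPL and LLGL2 rest in part on replicate 3.

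Of the polarity and apical trafficking genes, LLGL2 (a basolateral determinant of the Scribble module) fell in both lines that carry the EHF plasmid. It stood at 377, 395 and 765 CPM in HCT116-EV, 162, 170.3 and 160.0 in HCT116-EHF, 287, 299.8 and 272 in HCT116-CDX1 and 162, 165 and 159.8 in HCT116-EHF+CDX1 libraries. The HCT116-EHF and HCT116-EHF+CDX1 libraries overlapped each other, and every other pair of lines was separate. The log2 fold change was -1.66 ± 0.22 with both factors and -1.64 ± 0.22 with EHF (adjusted p = 0.00118 and 0.00156), and -0.84 ± 0.21 with CDX1 (adjusted p = 0.088). Without HCT116-EV replicate 3 the values were -1.25, -1.23 and -0.43.

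PARD6B, the Par6 subunit of the apical Par complex, was set apart by HCT116-CDX1 cells, at 233, 149 and 168 CPM against 19.9, 20.3 and 41.4 in HCT116-EV, 33.4, 29.8 and 32.2 in HCT116-EHF and 27.1, 22.0 and 23.8 in HCT116-EHF+CDX1 libraries. Its rise over HCT116-EV cells was 2.74 ± 0.27 (6.68-fold, adjusted p = 8.34e-06), and HCT116-EHF+CDX1 cells lay below HCT116-CDX1 cells by -2.91 ± 0.27 (adjusted p = 6.67e-06). MAL2, an apical transcytosis protein with the highest length-normalized level of this group, stood at 372, 388 and 409 CPM in HCT116-EV, 196, 219 and 209 in HCT116-EHF, 193, 216 and 233 in HCT116-CDX1 and 234, 219 and 243 in HCT116-EHF+CDX1 libraries. All 3 other lines were below HCT116-EV and overlapped among themselves. MAL2 fell by 0.90 ± 0.09 with EHF and by 0.86 ± 0.09 with CDX1 (adjusted p = 0.00974 and 0.00394; with EHF, 0.0510 without HCT116-EHF replicate 1), and with both factors its value of -0.75 ± 0.09 did not pass the 1.5-fold test (adjusted p = 0.118). CRB3 (the Crumbs protein of epithelia) was lower in HCT116-EHF+CDX1 than in HCT116-CDX1 cells by -0.89 ± 0.14 (adjusted p = 0.0164, and 0.0676 without HCT116-EHF+CDX1 replicate 1) and overlaps DENND1C, while RAB25 passed in no comparison.

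CDH1, which encodes E-cadherin, did not pass the 1.5-fold test in any comparison. Its levels were 134, 129 and 374 CPM in HCT116-EV, 107, 99.4 and 99.4 in HCT116-EHF, 125, 109.6 and 116 in HCT116-CDX1 and 108, 105 and 119 in HCT116-EHF+CDX1 libraries. All HCT116-EV libraries lay above the rest, but replicates 1 and 2 by little and replicate 3 by far. The log2 fold changes were -0.95 ± 0.32, -1.06 ± 0.32 and -0.86 ± 0.32 with both factors, EHF and CDX1 (adjusted p = 0.302, 0.216 and 0.153), and without that library -0.26, -0.37 and -0.17. CTNNA1, the alpha-catenin that links cadherin to actin and the adherens junction gene with the highest length-normalized level, stood at 311, 298 and 279 CPM in HCT116-EV, 356, 343 and 330.1 in HCT116-EHF, 605, 545 and 532 in HCT116-CDX1 and 309.6, 306 and 298 in HCT116-EHF+CDX1 libraries. It rose with CDX1 alone by 0.92 ± 0.09 (adjusted p = 0.000715), and under limma voom with quantile normalization the value was 0.48 and did not pass. CTNNA1 overlaps CTNNA1-AS1 and LRRTM2. CTNND1 (p120-catenin) passed in no comparison and overlaps the read-through gene TMX2-CTNND1, which can take its reads.

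Of the epithelial regulators, ESRP2 (an epithelial splicing factor) fell in HCT116-CDX1 cells. It stood at 78.4, 73.2 and 99.6 CPM in HCT116-EV, 64.3, 62.2 and 62.5 in HCT116-EHF, 40.3, 47.8 and 46.8 in HCT116-CDX1 and 78.6, 77.4 and 78.4 in HCT116-EHF+CDX1 libraries, a log2 fold change of -0.90 ± 0.11 over HCT116-EV cells (adjusted p = 0.00576). It overlaps NFATC3. HCT116-EHF+CDX1 cells lay above HCT116-CDX1 cells by 0.80 ± 0.11 (adjusted p = 0.0309), a call lost without HCT116-CDX1 replicate 1 or HCT116-EHF+CDX1 replicate 1 (adjusted p = 0.125 and 0.0519). Its paralogue ESRP1, with the highest length-normalized level of the group, was at 145, 145 and 167 CPM in HCT116-EV, 109, 111 and 107 in HCT116-EHF, 175, 152 and 183 in HCT116-CDX1 and 123, 112 and 123 in HCT116-EHF+CDX1 libraries. The HCT116-EV and HCT116-CDX1 libraries of ESRP1 overlapped and lay above the lines with EHF, but no ESRP1 comparison passed the 1.5-fold test. OVOL1, a zinc finger repressor that maintains epithelial identity, was lower in HCT116-EHF+CDX1 than in HCT116-CDX1 cells by -1.64 ± 0.17 (adjusted p = 6.87e-05), and overlaps its antisense gene OVOL1-AS1. GRHL2, which activates CDH1 and claudin genes in epithelia, had levels between 36.6 and 51.1 CPM over all 12 libraries and passed in no comparison.

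The matriptase gene ST14 and its inhibitors SPINT1 and SPINT2 passed the 1.5-fold test in no comparison of all 12 libraries. SPINT1 passed in HCT116-CDX1 cells without HCT116-EV replicate 3, at 0.74 ± 0.06 (adjusted p = 0.00415). SPINT2 had the highest length-normalized level of the 3 genes, at 7.94 ± 0.44 log2 RPKM in HCT116-EV cells. It stood at 352, 360.0 and 621 CPM in HCT116-EV, 392, 403 and 394 in HCT116-EHF, 441, 496 and 445 in HCT116-CDX1 and 360.4, 389 and 389 in HCT116-EHF+CDX1 libraries, so that the HCT116-EV range spanned the other lines.

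The effect of EHF differed with and without CDX1 in 12 of the 41 genes (29.3%), where the interaction passed the 1.5-fold test. The interaction is the EHF contrast with CDX1 present (both factors over CDX1 alone) less the EHF contrast without it (EHF alone over empty vector), on the log2 scale. It was positive for CLDN1, CLDN2, CLDN3, CLDN23, JUP, PKP3, ESRP2 and MAL2 and negative for CTNNA1, CLDN12, DSC2 and PARD6B, while 38.2% of all genes were called (20.2% positive and 18% negative). For CLDN1 the EHF contrast was 6.98 ± 0.42 with CDX1 and 1.11 ± 0.53 without, an interaction of 5.88 ± 0.80 (edgeR adjusted p = 0.000118). CLDN1 passed the filter on low counts only through the line with both factors. Without HCT116-CDX1 replicate 1, which held 8 of the CLDN1 reads of that line, the contrast with CDX1 was 7.65 and the interaction 6.54. For CLDN2 it was 4.80 ± 0.24 and 1.25 ± 0.27, with an interaction of 3.55 ± 0.37 (adjusted p = 2.03e-05). For PARD6B it was -2.91 ± 0.27 and 0.21 ± 0.26, an interaction of -3.13 ± 0.37 (adjusted p = 5.92e-05), and its level in HCT116-EHF+CDX1 cells overlapped that in HCT116-EV cells. CLDN1 and CLDN2 thus differed through HCT116-EHF+CDX1 cells, and PARD6B, CLDN12 and CTNNA1 through HCT116-CDX1 cells. The line with both factors also had more CDX1 mRNA than the line with CDX1 alone (5419 against 525 CPM), and its part in these differences was not tested. Under limma voom 10 genes were called, with 80% of the calls positive in place of 66.7%, and without HCT116-EV replicate 3 there were 21, of which 8 were positive and 13 negative against 47.7% of all genes, and the 12 were kept. The 9 that joined were negative, namely CLDN4, CLDN15, OCLN, F11R, TJP1, DSG2, DSP, CRB3 and SPINT1.

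**Figure D5:**
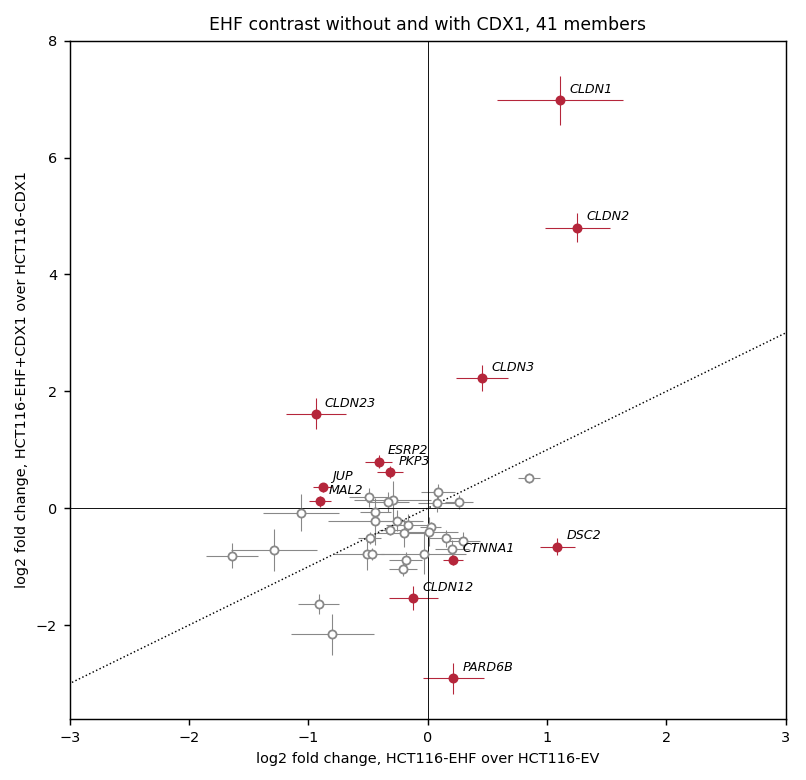
Log2 fold change of HCT116-EHF over HCT116-EV cells (x axis) and of the line with both factors over HCT116-CDX1 cells (y axis) for the 41 genes, with SE bars and the line of equal values dotted. The 12 filled and named genes passed the 1.5-fold interaction test, with CLDN1, CLDN2, CLDN3 and CLDN23 farthest above the line and PARD6B farthest below it.

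Other junction genes outside the 41 also changed in part. Of 38 listed other junction components 25 passed the filter, and in HCT116-EHF+CDX1 cells 5 rose and 1 fell relative to HCT116-EV cells, 24% of the 25 against 10.4% of all genes. The desmosomal plakophilin PKP1 had at most 2 reads in an HCT116-EV library and stood at 0.532, 0.252 and 0.3 CPM in HCT116-EHF, 0.0657, 0.0505 and 0.0772 in HCT116-CDX1 and 6.43, 4.12 and 4.56 in HCT116-EHF+CDX1 libraries. The desmosomal cadherin DSC3 stood at 1.46, 2.08 and 2.85 CPM in HCT116-EV, 25.6, 24.9 and 24.7 in HCT116-EHF, 39.0, 27.3 and 36.8 in HCT116-CDX1 and 26.5, 23.6 and 23.2 in HCT116-EHF+CDX1 libraries. DSC3, like DSC2, was thus above HCT116-EV in all 3 lines, by 3.47 ± 0.21 with both factors (adjusted p = 5.95e-07). In HCT116-CDX1 cells 7 rose and 6 fell, 52% of the 25 against 44.6% of all genes. Of 20 listed other polarity genes 19 passed the filter, and in HCT116-CDX1 cells 2 of them rose and 3 fell, 26.3% of the 19 against the same 44.6%. In HCT116-EHF+CDX1 cells 0 of the 19 passed the edgeR 1.5-fold test, 2 had an unadjusted p under 0.05, and 4 higher and 5 lower genes passed the edgeR test against no change.

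Of 6 tested other epithelial transcription factors, OVOL2, a paralogue of OVOL1, rose in HCT116-EHF+CDX1 cells, from 0.264 ± 0.0648 to 3.27 ± 0.437 CPM (log2 fold change 3.68 ± 0.26, adjusted p = 1.94e-06). In HCT116-CDX1 cells 4 of the 6 rose and 1 fell, against 44.6% of all genes called. In HCT116-EHF cells 1 rose and 2 fell, against 8.33%. Of 4 tested transcription factors that drive epithelial-mesenchymal transition and repress junction genes, ZEB1 rose in HCT116-EHF+CDX1 cells by 1.91 ± 0.26 (adjusted p = 0.00105). TWIST1 also passed there, with no read in the HCT116-EV libraries and 0.669 ± 0.121 CPM with both factors, which is at least 6.15-fold higher than the level of 3 counts per HCT116-EV library. Its level was 0.666 ± 0.0251 CPM with EHF alone and 0.406 ± 0.130 with CDX1 alone. All 4 rose in HCT116-CDX1 cells, where 44.6% of all genes were called. In HCT116-EHF+CDX1 cells 3 of them (ZEB1, SNAI1 and SNAI2) were lower than in HCT116-CDX1 cells, a comparison in which 41% of all genes were called. ZEB1 stood at 19.7, 12.5 and 13.6 CPM in HCT116-CDX1 and 0.904, 1.14 and 1.69 in HCT116-EV libraries, and SNAI2 at 32.9, 20.6 and 22.0 and 0.388, 0.426 and 0.331. Of 4 tested mesenchymal genes, the intermediate filament gene VIM rose in HCT116-EHF+CDX1 cells. It had at most 3 reads in an HCT116-EV library and stood at 0.944 ± 0.128 CPM with EHF, 3.47 ± 1.24 with CDX1 and 3.37 ± 0.73 with both factors. The part of these genes in the changes of the junction genes was not tested.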

How the data were processed

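The authors sequenced polyA RNA of 12 libraries, mapped the reads to GRCh38/hg38 with Subread and counted uniquely mapped reads per RefSeq gene with featureCounts (both version 2.0.0 in the submitters' processing notes). The kit keeps strand, but the strand setting of the counting is not given in the sources used here, so overlapping genes are uncertain. The authors deposited raw counts of 28395 genes (550 lack a symbol). The authors also deposited log2 RPKM values, which their methods describe as quantile normalized with limma and scaled by exon length. The log2 RPKM values served here for levels between genes and as an alternative.

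Genes with at least 0.5 CPM in at least 3 libraries (15853, leaving out 0.0585% of the counts) were fitted in edgeR 4.0.16 (R 4.3.3) by the quasi-likelihood method, with TMM factors (0.799 to 0.845 in HCT116-CDX1 libraries and 0.973 to 1.09 in the others) and the 4 lines as groups. Calls used glmTreat with a 1.5-fold limit, Benjamini-Hochberg adjustment over all genes and a threshold of 0.05. SEs were derived from each log2 fold change and its F statistic (test against no change). A level of 3 counts, used as the limit for genes without reads, corresponds to 0.0375 to 0.207 CPM per library, for counting error only. The study calls its RNA-seq replicates biological, with a number that differs from the 3 libraries per line used here, and the labels do not say that they came from separate cultures, so p-values measure the spread between these libraries, which may be technical.

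Library values and statistics are given for genes past the 1.5-fold test against HCT116-EV with a log2 fold change of at least 1 in size, for genes past the interaction test, and for the gene of each role with the highest log2 RPKM. CDH1, TJP3, SNAI2 and the fold changes of other called genes were added after their values were seen. Of each other list, up to 2 called genes with the largest change in HCT116-EHF+CDX1 cells are given with values. The 41 genes, the other lists and the marker lists were chosen with earlier results of these data known. Alternatives were limma 3.58.1 voom with quantile normalization, DESeq2 1.42.0, RLE factors, no count filter, other samples in the fit, a replicate block, each library left out and limma on log2 RPKM. The model was tested on simulated counts. Promoter windows and gene positions came from RefSeq (GRCh38.p14). Windows of the 41 genes on chromosome 8 were left out, but those of all genes there were kept.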

Additional observations from a re-analysis of the deposited data

Results flagged for a closer look

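The 12 genes whose EHF contrast differed with and without CDX1 (edgeR interaction, 1.5-fold test, adjusted over all genes) had the following differences on the log2 scale, each with SE. The claudins had 5.88 ± 0.80 (CLDN1), 3.55 ± 0.37 (CLDN2), 1.77 ± 0.31 (CLDN3), 2.55 ± 0.36 (CLDN23) and -1.42 ± 0.29 (CLDN12). The desmosome genes had 1.24 ± 0.11 (JUP), 0.93 ± 0.15 (PKP3) and -1.75 ± 0.20 (DSC2). The remaining genes had 1.21 ± 0.16 (ESRP2), 1.02 ± 0.13 (MAL2), -1.09 ± 0.12 (CTNNA1) and -3.13 ± 0.37 (PARD6B). Adjusted p-values ranged from 2.03e-05 (CLDN2) to 0.0159 (PKP3). The interactions of CTNNA1 and CLDN12 did not pass under limma voom or limma on log2 RPKM values. That of PKP3 did not pass under DESeq2.

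The EHF contrast had opposite signs, each past the edgeR test against no change, for JUP, PKP3, ESRP2, CLDN23 and DSC2. For MAL2, PARD6B and CTNNA1 the signs of the estimates differed, but 1 of the 2 contrasts did not pass that test (adjusted p = 0.284, 0.568 and 0.0785). JUP, for example, was -0.88 ± 0.08 in HCT116-EHF over HCT116-EV cells and 0.35 ± 0.08 in HCT116-EHF+CDX1 over HCT116-CDX1 cells, and DSC2 was 1.09 ± 0.15 and -0.66 ± 0.14. For JUP, MAL2, PKP3, ESRP2, CLDN3 and CLDN23 HCT116-CDX1 cells already lay below HCT116-EV cells, and for DSC2, CTNNA1, CLDN12 and PARD6B above them. The EHF level in the 2 lines without the plasmid was unequal as well, at 299 CPM with the empty vector and 12.3 CPM in HCT116-CDX1 cells, and its part in the interaction was not tested.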

How the results depend on the processing

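The calls of single genes kept their direction under every alternative, and 716 re-computed values kept their side of the threshold while 86 no longer passed. The 716 include the values of the edgeR test against no change, which has the same fold changes and could not lose a call. The number of the 41 genes called depended on the setting, and the share of all genes called is not given for every setting. The edgeR test against no change gave 18, 17, 27, 4, 25 and 23 genes for HCT116-EHF+CDX1, HCT116-EHF and HCT116-CDX1 against HCT116-EV, HCT116-EHF+CDX1 against HCT116-EHF and against HCT116-CDX1, and the interaction, in place of 8, 5, 13, 2, 13 and 12. For HCT116-EHF+CDX1 and HCT116-EHF against HCT116-EV, limma voom gave 5 and 3, limma on the log2 RPKM values 5 and 3, and a fit of only the groups compared 4 and 0. In the last case 7 genes had an unadjusted p under 0.05 in edgeR (3 higher and 4 lower), and DESeq2, with all lines, called 4. Leaving out each library gave 5 to 10, 4 to 8, 10 to 20, 2, 11 to 13 and 12 to 21 genes in the order above. The highest numbers, 10, 8, 20 and 21, came without HCT116-EV replicate 3, and the lowest, 5, without HCT116-EHF+CDX1 replicate 1 or 3. Without that HCT116-EV library its 2 remaining libraries are assumed to vary like the other lines. With the replicate number as a block, 8, 5, 12, 2, 13 and 12 genes were called, and the deviations of same-numbered libraries correlated by -0.065 to 0.080, so the numbers do not pair the libraries. CLDN3 in HCT116-CDX1 cells (-0.90, adjusted p = 0.0532) was the call lost. Under limma voom the median interaction of the 41 genes was 0.12 in place of -0.062. Depth limits CLDN1, which had 1 to 23 reads in each library outside HCT116-EHF+CDX1.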

Other observations

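Some of the 41 genes differed from HCT116-EV cells by less than the 1.5-fold test requires and passed only the edgeR test against no change. The lower genes with both factors include AP1M2 (the epithelial clathrin adaptor subunit, -0.65 ± 0.13), CXADR (-0.52 ± 0.18), MARVELD3 (-0.46 ± 0.10), TJP3 (ZO-3, -0.43 ± 0.12), CRB3 (-0.41 ± 0.14) and ESRP1 (-0.36 ± 0.10). Without HCT116-EV replicate 3, AP1M2 was also past the 1.5-fold test, and 11 of the 41 values changed sign.

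Only 1 of the 41 genes, TJP3, had its HCT116-EHF libraries above the other 9, against 5.48% of all genes. TJP3 was at 74.4, 68.1 and 65.8 CPM there against 53.4, 55.95 and 64.4 in HCT116-EV, 36.3, 47.1 and 36.3 in HCT116-CDX1 and 40.9, 44.3 and 44.0 in HCT116-EHF+CDX1 libraries. It passed the test against no change between HCT116-EHF+CDX1 and HCT116-EHF cells, at -0.69 ± 0.12 (edgeR adjusted p = 0.00294), but not the 1.5-fold test, and it overlaps APBA3.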
